A study of Saccharomyces cerevisiae with 8 samples.

Results

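The comparison concerned yeast growing at the same reduced rate in mixtures of cycloheximide and LiCl that leaned towards one compound or the other. Its members were the 2 cycloheximide-rich mixtures, points 2 and 3 of a growth isobole, set against the 2 LiCl-rich mixtures, points 5 and 6, so that 4 of the 8 libraries of the series entered and none of them came from a culture with a single compound. All 4 cultures were of Saccharomyces cerevisiae strain BY4741, grown from a frozen stock for about 17 h in rich medium (YPD) with both compounds at doses that held growth inhibition at 50%. Along the isobole the ratio of the compounds changed, point 1 being cycloheximide only and point 7 LiCl only, and a further culture had no drug. The labels order the mixtures by point number without giving doses. Each mixture is 1 culture, the 2 mixtures of a side differ in drug ratio, and the spread within a side therefore holds that difference as well as the variation between cultures. With 2 cultures against 2, an exact permutation test of a single gene cannot go below p = 0.33, so every test below is a model fitted across all genes or introns.

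Cycloheximide binds the large ribosomal subunit and stops translation elongation. Lithium is a toxic cation that enters cells through cation transporters, imposes cationic and osmotic stress and inhibits several magnesium-dependent enzymes. Because slow growth by itself lowers ribosomal and raises stress transcripts in yeast, the study compared the compounds at equal growth inhibition. Most yeast genes have no intron, and a large share of the intron-containing ones encode ribosomal proteins (RPs), which makes RP transcripts the main load of the yeast spliceosome.

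Ribodepleted total RNA gave between 13693401 and 17673770 counts over coding sequences (CDS) in the 4 mixtures, and 28042336 in the deepest library of the series, LiCl only. The strain's markers were as its genotype requires, with LEU2, URA3 and MET17, all deleted in BY4741, at 0 in the 4 mixtures, and the MATa gene STE2 at 211 to 299 CPM (counts per 1000000). The MATalpha genes STE3 and MF(ALPHA)1 did not exceed 1.86 CPM there, SAG1, a further alpha gene, had 7.37 to 9.47 CPM, and HIS3, which BY4741 lacks only in part, had 21.5 to 48.0 CPM. CPM values below are scaled by the trimmed mean of M values (TMM). Fold changes are log2 differences, cycloheximide-rich minus LiCl-rich, with their standard error (SE), from the quasi-likelihood test of edgeR, and a gene or intron was called when its Benjamini-Hochberg adjusted p was below 0.05.

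Of 6338 genes tested, 328 were called (5.18%), of which 252 were higher (3.98%) and 76 lower (1.2%) in the cycloheximide-rich mixtures. The genes that were higher in the cycloheximide-rich mixtures included some of those for amino acid and nitrogen metabolism, stress chaperones and reserve carbohydrates, phosphate acquisition, respiration and the ribosome. Those that were lower included FAR1 and MFA1 of the pheromone pathway and the ribonucleotide reductase genes RNR1 and RNR3. Differences were mostly below 2-fold, as 79 of the called genes, 70 higher and 9 lower, reached a log2 difference of 1. The median absolute log2 difference between the sides over all genes was 0.18, against 0.14 between points 2 and 3 and 0.15 between points 5 and 6. The first value is between means of 2 libraries and the others between single libraries, so they are not directly comparable. Libraries weighed unequally in the count: without point 3 there were 148 calls and without point 5 there were 1045, while 98 of the 328 genes were called whichever library was left out.

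**Figure D1:**
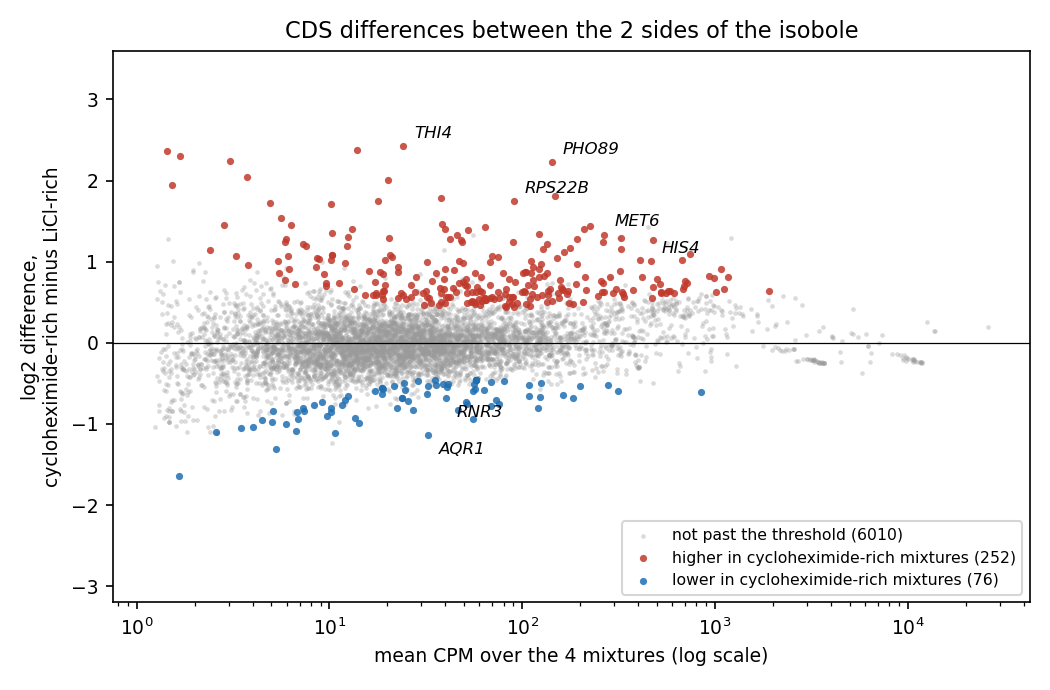
Log2 difference of each gene (cycloheximide-rich minus LiCl-rich mixtures, vertical axis) against its mean CPM over the 4 mixtures (horizontal axis, log scale), 1 point per gene. The 252 genes called higher lie on the upper edge over the whole range of expression, and the 76 called lower reach less far from 0.

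Genes of amino acid synthesis under Gcn4, the transcription factor that is translated when uncharged tRNA accumulates, were higher in the cycloheximide-rich mixtures more often than those of any other list examined. Of 33 tested, 23 were called higher and none lower, all 33 lay above 0, and the median log2 difference was 0.69, against -0.01 over all genes. LYS1, which encodes the last enzyme of lysine synthesis, had 64.5 and 55.4 CPM in the cycloheximide-rich mixtures, against 25.8 and 23.4 CPM in the LiCl-rich ones (1.28 ± 0.13, edgeR adjusted p = 0.0041). HIS4, a multifunctional histidine enzyme, had 641 and 610.0 CPM in the cycloheximide-rich mixtures and 299.8 and 322 CPM in the LiCl-rich mixtures. In both genes the sides did not overlap, which was so for 54.7% of all genes tested, 27.6% in the higher direction. Both were chosen for their small p, which favours such a gap. SNZ1, for vitamin B6 synthesis, stood at 30.8 and 27.2 CPM in the cycloheximide-rich mixtures and 10.8 and 12.7 CPM in the LiCl-rich ones, and ARG56 (ARG5,6), for ornithine synthesis, at 54.7 and 48.8 CPM and at 25.5 and 29.6 CPM on the same sides. At the middle mixture, point 4, HIS4 and LYS1 had 427 and 39.1 CPM, between the sides. Without a library the list kept between 17 and 28 calls, all of them higher.

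Gcn4 binds the core TGACTC, which was searched on both strands in the 500 bases before each start codon. It occurred in 26 of the 33 genes (78.8%), in 32.5% of all genes called higher, in 12.1% of those called lower and in 12.7% of the 5763 genes searched. The list was made of genes under Gcn4, so its share follows in part from that choice. Its called members also count among the genes called higher. The match nearest to the start codon is shown for the 4 genes described, on the gene's strand in build R64 (RefSeq), with the core or its reverse complement in capitals.
LYS1: cagcgacaaaGAGTCAtaaagtcatc
SNZ1: catttcttcaTGACTCtgacacactc
HIS4: ccatgcacagTGACTCacgttttttt
ARG56: tggtaattgaTGACTCttctattttt
These lie at chrIX:420855-420880, chrXIII:458219-458244, chrIII:68517-68542 and chrV:295223-295248 and stand 128, 173, 193 and 171 bases before their start codons. A match is a description of the sequence and does not show that the factor was bound.

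Some nitrogen use and sulfur amino acid genes were also higher in the cycloheximide-rich mixtures. Of 20 nitrogen use genes tested, 10 were called higher and none lower (median 0.60). DUR12 (DUR1,2), the urea amidolyase, had 487 and 409 CPM in the cycloheximide-rich mixtures, against 202 and 199 CPM in the LiCl-rich mixtures (1.16 ± 0.13, adjusted p = 0.0042). BAT2, a branched-chain aminotransferase, had 172 and 129 CPM against 78.1 and 78.2 CPM on those sides, and ARO9, an aromatic aminotransferase, 118 and 112 CPM against 60.2 and 75.9 CPM. CAR2, for arginine breakdown, differed by 0.86 ± 0.15. The sides did not overlap in these 4 genes, against the 27.6% of all genes given above. The 4 were chosen for their small p, which favours such a gap. Of 23 sulfate and methionine genes, 6 were called higher and none lower (median 0.34), a count that fell to 2 without point 2. MET6, the methionine synthase, had 390.4 and 368 CPM in the cycloheximide-rich mixtures and 132 and 168 CPM in the LiCl-rich mixtures, all 4 far below the 1463 CPM of the drug-free culture (1.33 ± 0.14, adjusted p = 0.0041). Its level at point 4, 444 CPM, was that of the cycloheximide-rich side. SAM1, an S-adenosylmethionine synthetase, the S-methylmethionine permease MMP1 and STR3, which makes homocysteine, differed by 0.67 ± 0.13, 1.06 ± 0.14 and 0.93 ± 0.19.

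Outside the lists, 4 genes were chosen after their values were seen. GCV2, for the P subunit of glycine decarboxylase, had 287 and 256 CPM in the cycloheximide-rich mixtures, against 88.1 and 136 CPM in the LiCl-rich mixtures. GCV1 and GCV3, for other subunits, and the cytosolic serine hydroxymethyltransferase SHM2 were called higher as well, with log2 differences of 1.22, 1.00 and 1.09.

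Several of the genes furthest apart were stress genes that were low at both ends of the isobole. SIP18, which encodes a desiccation-protective hydrophilin, had 19.4 and 27.1 CPM in the cycloheximide-rich mixtures, against 7.00 and 1.92 CPM in the LiCl-rich mixtures (2.38 ± 0.39, adjusted p = 0.011). GRE1, another hydrophilin gene, had 30.9 and 33.7 CPM in the cycloheximide-rich mixtures and 11.5 and 4.54 CPM in the LiCl-rich mixtures. TKL2, the minor transketolase, had 52.5 and 60.2 CPM in the cycloheximide-rich mixtures, against 21.3 and 19.5 CPM in the LiCl-rich mixtures, and was the gene with the smallest p (1.47 ± 0.13, adjusted p = 0.0025). The CDS of TKL2 overlaps that of YBR116C on the same strand, and reads in the overlap were counted for both. In all 3 genes the middle mixture was as high as the cycloheximide-rich ones, with 26.5 CPM for SIP18, 33.4 for GRE1 and 69.6 for TKL2. In cycloheximide alone the same genes had 7.03, 6.95 and 15.0 CPM, and in LiCl alone 1.57, 5.15 and 13.97 CPM. THI4, for thiamine thiazole synthesis, had this profile too, with 39.5 and 42.1 CPM in the cycloheximide-rich mixtures, against 12.8 and 2.37 CPM in the LiCl-rich mixtures (2.42 ± 0.45, adjusted p = 0.018), and so did GND2, the minor phosphogluconate dehydrogenase (1.74 ± 0.27). Among the 252 genes called higher, 59 (23.4%) had points 2, 3 and 4 above the other 5 libraries, and among all genes tested 3.47% did. The fit uses points 2 and 3, so the excess over all genes is in part fixed by the call.

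The general stress list, of genes induced by Msn2 and Msn4 under many stresses, had 7 of 15 genes called higher and none lower (median 0.60). DDR2, a multistress response gene, had 53.0 and 63.1 CPM in the cycloheximide-rich mixtures and 24.5 and 19.4 CPM in the LiCl-rich mixtures (1.40 ± 0.15, adjusted p = 0.0041). HSP26, a small heat shock protein that holds unfolded proteins, had 209 and 254 CPM against 88.1 and 43.4 CPM on those sides, and CTT1, the cytosolic catalase, 142 and 179 CPM against 86.5 and 84.0 CPM. GAD1, the glutamate decarboxylase, differed by 0.98 ± 0.17. The sides did not overlap in these 4 genes either, as in 27.6% of all genes tested in the higher direction. The 4 were chosen for their small p, which favours such a gap. HSP12, the membrane-associated small heat shock protein, had higher CPM in both cycloheximide-rich mixtures, 995 and 1056 CPM against 782 and 566 CPM, without passing the test (0.60 ± 0.17, adjusted p = 0.068). Of 18 heat shock chaperones 3 were called, all higher: the Hsp70 genes SSA3 (57.5 and 60.4 CPM, against 21.7 and 12.4 CPM in the LiCl-rich mixtures) and SSA4 (1.42 ± 0.32, adjusted p = 0.036), and HSP10, the mitochondrial co-chaperonin (0.74 ± 0.14, adjusted p = 0.020). Of the 18 chaperones 16 lay above 0, the lowest difference was -0.44, and without point 6 some were called lower. Of 17 trehalose and glycogen genes 4 were called, all higher. PGM2, the major phosphoglucomutase, had 277 and 462 CPM in the cycloheximide-rich mixtures and 174 and 139 CPM in the LiCl-rich mixtures. GDB1, the glycogen debranching enzyme, differed by 0.87 ± 0.15, and TSL1 and TPS1, subunits of trehalose synthase, by 0.79 ± 0.17 and 0.61 ± 0.14. These counts moved with the libraries used: general stress had 4 calls without point 3 and 12 without point 5, chaperones 15 without point 5, and reserve carbohydrates 11, 1, 12 and 9 without points 2, 3, 5 and 6.

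Msn2 and Msn4 bind the stress response element AGGGG. Read on both strands in the same 500 bases, it was present in 13 of the 15 general stress genes (86.7%), in 88.2% of the trehalose and glycogen genes, in 45.6% of all genes called higher, in 24.2% of those called lower and in 34.2% of all genes searched. As the general stress list is of genes induced by Msn2 and Msn4, its share follows in part from that choice. The matches nearest to the start codon of the 3 stress genes just described are printed with the element or its reverse complement in capitals.
DDR2: tcttttctcaCCCCTtatgggacat
HSP26: ttattccctcCCCCTtatgcgtcca
CTT1: tttatcgtatCCCCTactgctacac
They lie at chrXV:231916-231940, chrII:381694-381718 and chrVII:654491-654515 of R64. The 3 promoters hold 4, 3 and 3 such matches.

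**Figure D2:**
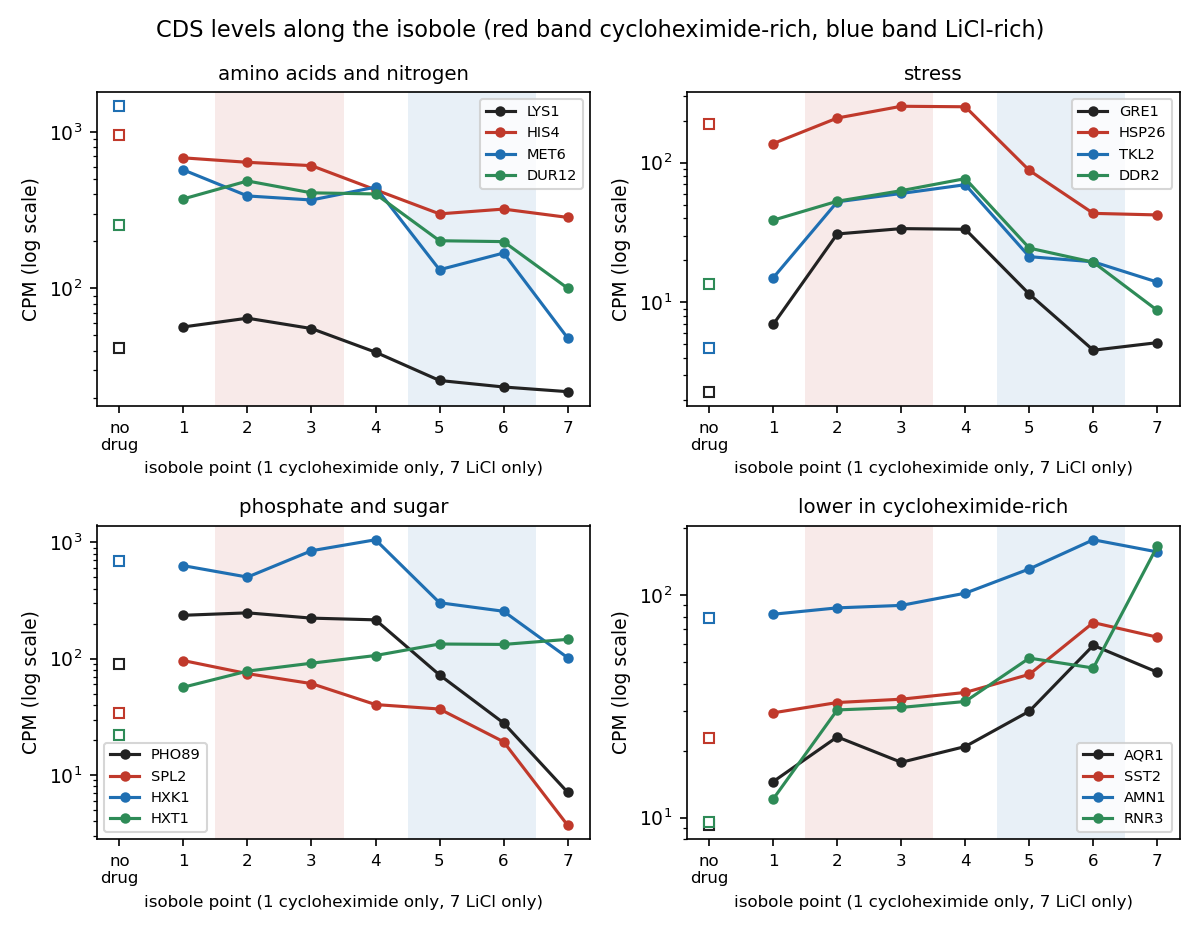
CPM of 16 genes (log scale) in the drug-free culture (open squares) and along the 7 isobole points (filled circles), 1 library per point, with the cycloheximide-rich mixtures in the red band and the LiCl-rich mixtures in the blue band. The stress genes peak at points 2 to 4 and the phosphate genes PHO89 and SPL2 decline towards LiCl, while RNR3 is highest in LiCl alone, at 166 CPM.

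The list of glycerol and osmotic stress genes split. Of 15 tested, 4 were called higher and 1 lower, with a median of -0.07. The higher ones were SIP18, GRE1, GCY1, a glycerol dehydrogenase (64.5 and 73.0 CPM, against 34.9 and 23.2 CPM in the LiCl-rich mixtures), and ALD3, an aldehyde dehydrogenase (156 and 194 CPM, against 83.7 and 54.1 CPM in the LiCl-rich mixtures). The lower one was GPP2, the osmotically induced glycerol phosphatase, with 217 and 242 CPM in the cycloheximide-rich mixtures and 336 and 320.1 CPM in the LiCl-rich mixtures (-0.51 ± 0.12, adjusted p = 0.042), and without point 2 or 3 the list had no lower call. GPD1, which makes the glycerol precursor, had 293 and 346 CPM against 325 and 358 CPM, and the sides overlapped. The sodium and lithium efflux pump ENA1 had 256 and 218 CPM in the cycloheximide-rich mixtures and 213 and 230.2 CPM in the LiCl-rich mixtures (0.09 ± 0.13, adjusted p = 0.71). None of 15 cation transport genes and none of 11 calcineurin and calcium genes was called by edgeR on the 4 mixtures, and without point 5 each list had 3 calls.

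Some phosphate genes were higher in the cycloheximide-rich mixtures. Of 15 tested, 6 were called higher and none lower (median 0.37). PHO89, which takes up phosphate together with sodium, had 248 and 223 CPM in the cycloheximide-rich mixtures, against 72.5 and 28.0 CPM in the LiCl-rich mixtures (2.22 ± 0.33, adjusted p = 0.0075). SPL2, which restrains low-affinity phosphate uptake, had 74.3 and 61.0 CPM in the cycloheximide-rich mixtures and 36.9 and 19.3 CPM in the LiCl-rich mixtures. In both, point 6 was lower than point 5, and LiCl alone lower still, at 7.12 and 3.71 CPM. The acid phosphatases PHO11 and PHO12 had log2 differences of 1.41 and 1.44, and since reads that map to several places were counted at each, these near-identical genes cannot be told apart. The core CACGTG, which Pho4 binds, was present within 500 bases of the start codon in 12 of the 15 phosphate genes (80.0%), in 17 of the 23 sulfate and methionine genes (73.9%), in 10.1% of all genes called higher, in 3.03% of those called lower and in 6.26% of all genes searched. Both lists were chosen by function, so their shares may follow in part from that choice. Their called members also count among the genes called higher. A match does not show which factor, if any, bound there, in either list. The core is shown in capitals for the 2 genes given by value.
PHO89: gacaatgcagCACGTGggagacaaat
SPL2: tcactgcagcCACGTGcctagatcta
They are at chrII:798830-798855 and chrVIII:375116-375141 of R64, and SPL2 holds 4 such cores.

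Genes of sugar entry and respiration followed. HXK1, the hexokinase that is repressed by glucose, had 502 and 846 CPM in the cycloheximide-rich mixtures, against 302 and 255 CPM in the LiCl-rich mixtures (1.27 ± 0.22, adjusted p = 0.014). It and the glucokinase GLK1 were the 2 called genes among 20 of glycolysis, both higher, and 1 was called without point 2 or 3. Of 11 hexose transporters, 3 were called higher and 1 lower. The high-affinity transporter HXT2 had 275 and 232 CPM in the cycloheximide-rich mixtures and 142 and 117 CPM in the LiCl-rich mixtures, and HXT6 and HXT7, whose reads cannot be separated, were higher by 0.69 and 0.72. The low-affinity transporter HXT1, used at high glucose, went the other way, with 78.2 and 91.4 CPM in the cycloheximide-rich mixtures, against 134 and 133 CPM in the LiCl-rich mixtures (-0.65 ± 0.12, adjusted p = 0.016). Without point 3 the hexose list had 1 higher call. Of 45 respiration genes, 13 were called higher and none lower, 44 lay above 0 and the median was 0.42. IDH1, a subunit of mitochondrial isocitrate dehydrogenase, had 74.2 and 75.8 CPM in the cycloheximide-rich mixtures, against 50.7 and 46.5 CPM in the LiCl-rich mixtures, and ATP14, a subunit of ATP synthase, 47.3 and 44.6 CPM against 30.7 and 29.3 CPM. IDH2, the partner of IDH1, and the aconitase ACO1 differed by 0.62 ± 0.13 and 0.60 ± 0.12. The respiration count was 1 without point 3 and 31 without point 5. Of 15 iron genes 3 were called higher, the siderophore transporter SIT1 with 29.6 and 30.1 CPM against 15.1 and 16.2 CPM in the LiCl-rich mixtures, and the reductase FRE1 and cell wall mannoprotein FIT2 by 0.54 and 0.56. The iron count was 1 without point 3 and 1 with DESeq2.

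**Figure D3:**
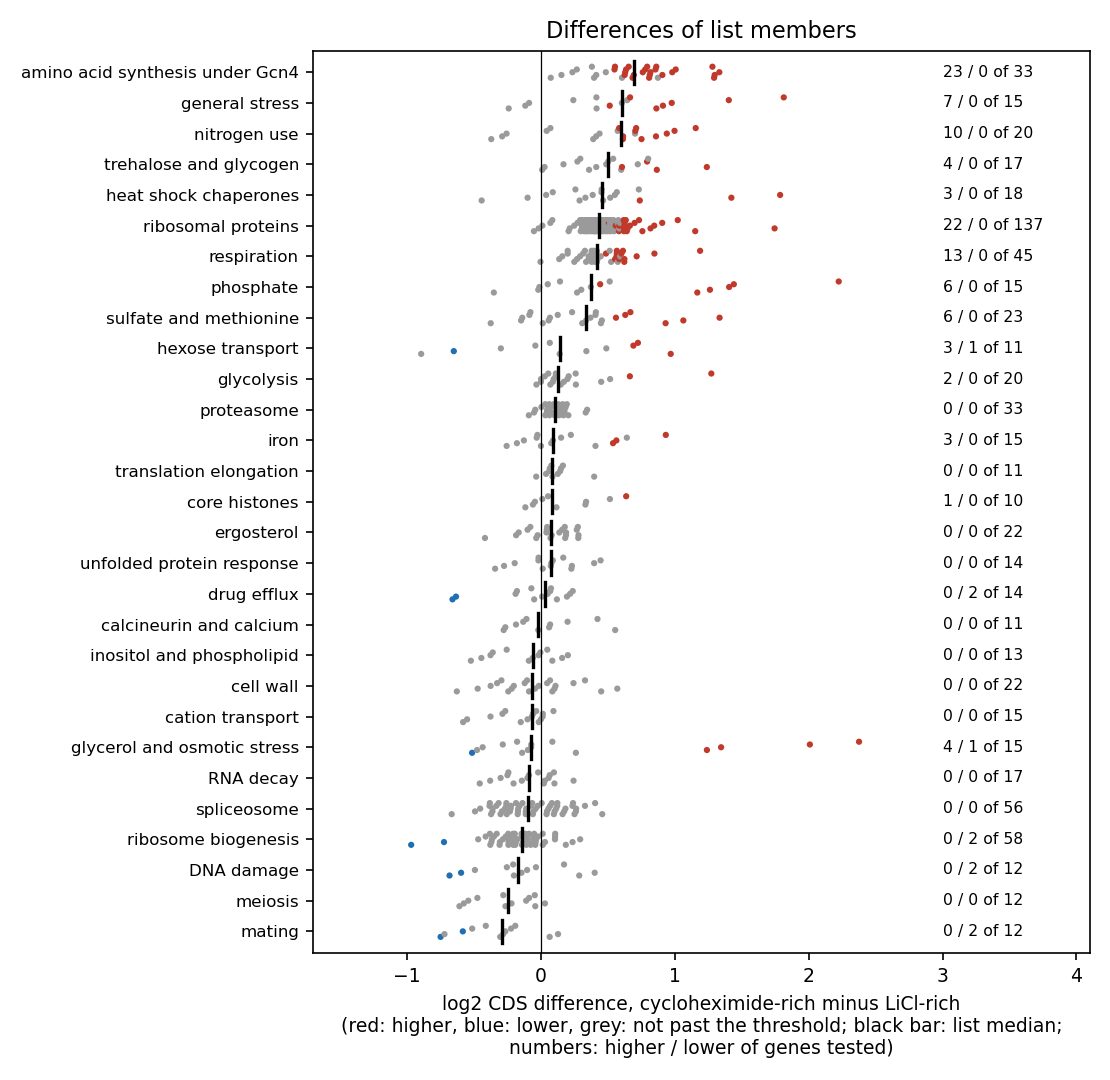
Log2 CDS difference of every tested member (points) of 29 gene lists, with the list median as a black bar and the numbers called higher and lower at the right. Amino acid synthesis under Gcn4 has the highest median, 0.69, and mating the lowest, -0.29.

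Ribosomal protein genes formed a narrow group on the higher side. Of 137 tested, 22 were called higher and none lower, 135 lay above 0 and the median was 0.43, or 0.41 when libraries were scaled by total counts only. RPS22B stood apart from the rest, with 147 and 132 CPM in the cycloheximide-rich mixtures, against 58.1 and 25.2 CPM in the LiCl-rich mixtures (1.75 ± 0.28, adjusted p = 0.011). Its intronless paralog RPS22A, for a nearly identical small subunit protein, had 708 and 589 CPM in the cycloheximide-rich mixtures and 469 and 390.3 CPM in the LiCl-rich mixtures, and did not pass the test (0.59 ± 0.15, adjusted p = 0.052). RPS9A had 197 and 156 CPM against 89.0 and 69.1 CPM on those sides (1.15 ± 0.15, adjusted p = 0.0074), and RPS9B 1294 and 1076 CPM against 751 and 591 CPM (0.82 ± 0.16, adjusted p = 0.023). Both members of that pair were thus higher, and the less expressed copy RPS9A by more, a difference between copies that was not tested. RPS3, at the mRNA entry of the small subunit, and RPL15B, of the large subunit, differed by 0.91 ± 0.15 and 0.70 ± 0.11. The number of RP genes called was 6 without point 2, 12 without point 3, 87 without point 5, and 71 with DESeq2 on the 4 mixtures. The 58 ribosome biogenesis genes had a median of -0.15 and 2 calls, both lower (3.45%, against 1.2% called lower over all genes). These were MAK16 (3.82 and 3.06 CPM, against 6.69 and 6.66 CPM in the LiCl-rich mixtures) and REX4 (-0.72 ± 0.17, adjusted p = 0.038), each with few counts. Without points 2, 3, 5 and 6 the list had 3, 0, 12 and 1 lower calls.

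Genes that were lower in the cycloheximide-rich mixtures were fewer and closer to 0. AQR1, a plasma membrane exporter of acids and amino acids, had 23.0 and 17.7 CPM in the cycloheximide-rich mixtures, against 30.05 and 59.4 CPM in the LiCl-rich mixtures (-1.14 ± 0.27, adjusted p = 0.040). RGS2, a regulator of glucose-sensing G protein signalling, had 10.9 and 8.21 CPM in the cycloheximide-rich mixtures and 17.3 and 20.5 CPM in the LiCl-rich mixtures. STP3, a zinc finger protein, had 53.6 and 48.3 CPM against 92.1 and 82.8 CPM on those sides (-0.78 ± 0.11, adjusted p = 0.0075). AQR1 owed its size to point 6, while STP3 was as high at point 5 as at point 6. The others among the 10 with the largest negative differences at 10 or more CPM were EFM6, SST2, BUD9, AMN1, AST1, FAR1 and TDA6, between -0.86 and -0.73.

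Of 12 mating genes, 2 were called and both were lower (median -0.29), a count of 1, 0, 6 and 1 without points 2, 3, 5 and 6. FAR1, which arrests the cycle of cells exposed to pheromone, had 58.5 and 54.8 CPM in the cycloheximide-rich mixtures, against 74.2 and 116 CPM in the LiCl-rich mixtures, and MFA1, for a-factor, had 49.8 and 51.5 CPM against 82.9 and 68.8 CPM. At the ends of the isobole MFA1 did not keep this order, with 77.8 CPM in cycloheximide alone and 74.2 CPM in LiCl alone. SST2, which turns the pheromone G protein off, was also lower (-0.83 ± 0.21, adjusted p = 0.049). DSE1, DSE2 and SCW11, which daughter cells express, were chosen after their values were seen and were called lower with differences of -0.54, -0.67 and -0.71. Of 12 DNA damage genes 2 were called lower, and 1 without point 2 or 3. RNR3, the damage-induced large subunit of ribonucleotide reductase, had 30.5 and 31.3 CPM in the cycloheximide-rich mixtures and 52.0 and 47.0 CPM in the LiCl-rich mixtures (-0.68 ± 0.12, adjusted p = 0.014), and RNR1, the main large subunit, 245 and 256 CPM against 344 and 412 CPM. All 4 mixtures exceeded the drug-free culture in both, which had 9.56 CPM of RNR3 and 75.0 CPM of RNR1.

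Of 14 drug efflux genes 2 were called, both lower: FLR1 and PDR18, at -0.66 and -0.64. Of the 14 genes 8 lay above 0, the median was 0.03, and both calls were lost without point 2, 3 or 6. PDR5, the main multidrug pump and a carrier of cycloheximide, had 754 and 679 CPM in the cycloheximide-rich mixtures and 733 and 625 CPM in the LiCl-rich mixtures (0.07 ± 0.14, adjusted p = 0.79). HAC1, for the regulator of the unfolded protein response, had 845 and 716 CPM against 808 and 1166 CPM, and the sides overlapped (-0.34 ± 0.19, adjusted p = 0.30). The lists of the unfolded protein response, inositol and phospholipid, proteasome, cell wall, ergosterol, spliceosome, RNA decay, translation elongation and meiosis genes held no call in the test of all 4 mixtures. Without point 5 these lists held 0 to 4 calls each. The 56 spliceosome genes had a median of -0.09 and a range of -0.67 to 0.46. One of 10 core histone genes was called, HTA1, for H2A, with 208 and 211 CPM against 137 and 132 CPM in the LiCl-rich mixtures, and none was called without point 3.

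Intron retention was the read density of an intron over that of the CDS of its gene. Its difference was below 0 in 217 of the 241 introns tested. Of these 241, 58 were called lower (24.1%) and none higher by edgeR, with 95 lower and 0 higher at an unadjusted p below 0.05. The sides did not overlap in 177 introns, lower in 171 (71.0%) and higher in 6 (2.49%). The median log2 difference was -0.86. The cycloheximide-rich mixtures were alike, as the median absolute difference between points 2 and 3 was 0.28, but the LiCl-rich mixtures were not, with 0.61 between points 5 and 6 and the higher retention mostly at point 6. The number called was accordingly 9 without point 2, 4 without point 3, 119 without point 5 and 0 without point 6, with 71 introns at an unadjusted p below 0.05 in the last case. limma on log2 retention called 0 introns, with 94 at an unadjusted p below 0.05.

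RP introns accounted for 37 of the 58 calls and for 102 of the 241 introns. All 102 had a difference below 0, with a median of -1.15, and in 97 the sides did not overlap. Median RP retention was 0.0110 and 0.00950 in the cycloheximide-rich mixtures, against 0.0175 and 0.0311 in the LiCl-rich mixtures. It was 0.0126 at point 4, 0.00615 in cycloheximide alone, 0.0546 in LiCl alone and 0.00713 without drug. The other 139 introns, with a median difference of -0.52 and 21 calls, were more retained throughout, at 0.185 and 0.168 in the cycloheximide-rich mixtures and 0.252 and 0.284 in the LiCl-rich mixtures. The RP median was below the other median by 0.63, and by 1.04 without point 5 and 0.27 without point 6. Among RP introns the 45 of the small subunit (19 called, median -1.19) and the 57 of the large subunit (18 called, median -1.11) were close. RP introns held a median of 113 counts per library and the others 17.5, and the part of this in the calls was not tested.

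Retention has the CDS level as its denominator, and the CDS of RP genes was higher in the cycloheximide-rich mixtures. Reads of the intron alone, as the log2 ratio of the sides' mean CPM, differed by a median of -0.57 over all introns, -0.69 for RP introns and -0.43 for the others. The RP and other introns were thus closer on that scale than in retention.

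**Figure D4:**
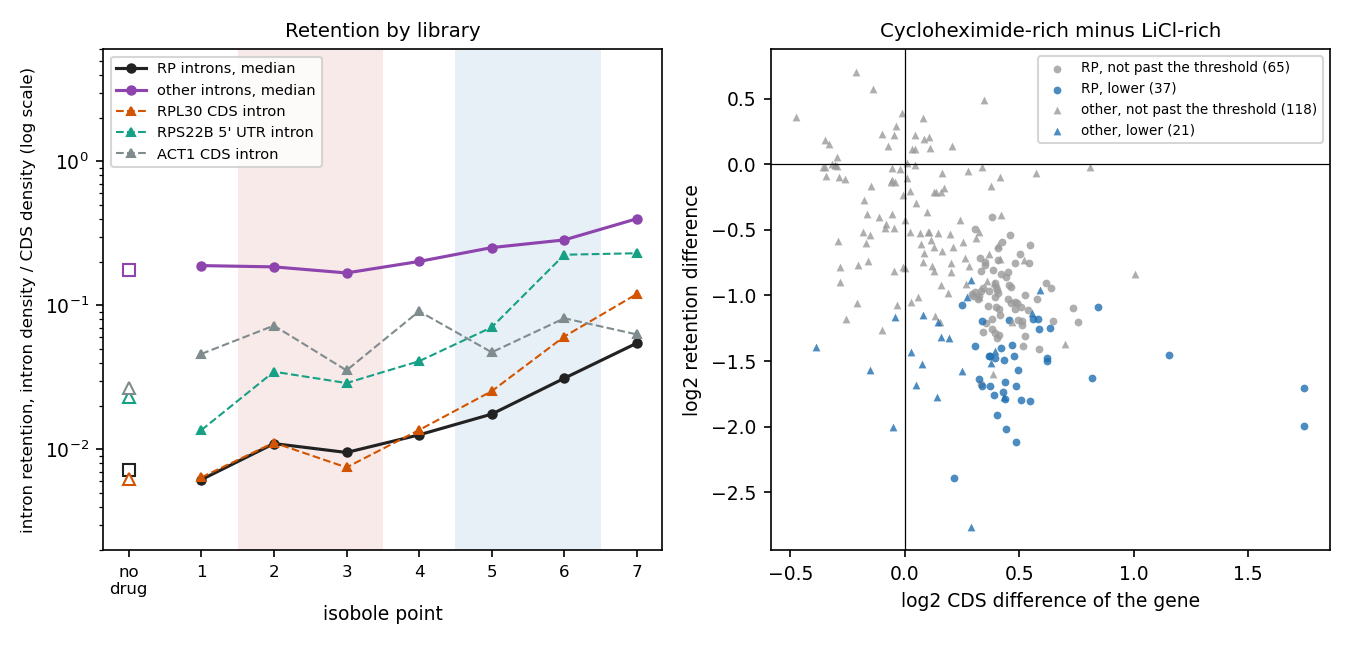
Left, intron retention (intron density over CDS density, log scale) in the drug-free culture (open symbols) and along the isobole (filled), as medians of 102 RP and 139 other introns and for 3 introns. Right, log2 retention difference against the log2 CDS difference of the same gene for 241 introns, where the called introns (blue) lie between -0.88 and -2.77 on the retention axis.

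The introns furthest apart belonged mainly to RP genes. The intron of RPL36B, for a large subunit protein (chrXVI:75986-76223), had a retention of 0.0273 and 0.0230 in the cycloheximide-rich mixtures, against 0.0848 and 0.201 in the LiCl-rich mixtures (-2.39 ± 0.49, adjusted p = 0.00010). RPL30, whose protein binds its own transcript and blocks its splicing, had 0.0111 and 0.00748 in the cycloheximide-rich mixtures and 0.0253 and 0.0607 in the LiCl-rich mixtures (-2.12 ± 0.55, adjusted p = 0.0034). In both, every cycloheximide-rich value was below every LiCl-rich value, as in 71.0% of the introns tested, and point 6 exceeded point 5 by over 2-fold. These introns were named from those without overlap, so that gap follows from the choice. RPL17A, RPS7A and RPS21B followed with -2.02, -1.91 and -1.80. Of the non-RP introns among the lowest 8, RCF3 (adjusted p = 0.014) held 6 and 3 reads in the cycloheximide-rich mixtures and 26 and 13 in the LiCl-rich mixtures, and NCE101 (-2.77 ± 1.07) 0 and 3 reads against 10 and 8. Both rest on few reads. The intron of MPT5, for a Pumilio-family RNA-binding protein, was chosen after its values were seen, for the smallest p among non-RP introns, with a retention of 0.839 and 0.881 in the cycloheximide-rich mixtures and 1.94 and 2.35 in the LiCl-rich mixtures (-1.31 ± 0.25, adjusted p = 3.8e-05).

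RPS22B carries one intron in its 5′ UTR and one in its CDS. The 5′ UTR intron (chrXII:855878-856434) had a retention of 0.0346 and 0.0288 in the cycloheximide-rich mixtures, against 0.0704 and 0.224 in the LiCl-rich mixtures (-1.997 ± 0.34, adjusted p = 1.6e-06), the smallest p of all introns. The intron's own reads overlapped between the sides, at 7.19 and 5.38 CPM in the cycloheximide-rich mixtures and 5.76 and 7.999 CPM in the LiCl-rich mixtures, a difference of -0.13. The retention difference thus lay numerically in the CDS, which was 3.35-fold higher in the cycloheximide-rich mixtures. RPL36B was the opposite case, with 7.05 and 4.70 intron CPM in the cycloheximide-rich mixtures, against 18.3 and 36.7 CPM in the LiCl-rich mixtures, and a CDS difference of 0.21. The CDS intron of RPS22B contains the snoRNA gene SNR44, so most of its 12794 to 15393 reads per library need not come from unspliced mRNA. RPS9A, with 0.0874 in each cycloheximide-rich mixture and 0.175 and 0.323 in the LiCl-rich mixtures, and RPS9B, with 0.0189 and 0.0171 against 0.0370 and 0.0832, were both called (-1.45 ± 0.37 and -1.63 ± 0.55). In RPS9A too the intron reads alone moved little (-0.30). Among the 23 tested 5′ UTR introns 7 were called lower (30.4%) and all 23 were below 0. Over all introns 24.1% were called lower and 217 of 241 were below 0. The 5′ UTR medians were -1.04 for the 13 in RP genes and -0.45 for the other 10.

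Splicing begins with pairing of the 5′ splice site to U1 snRNA and of the branch site to U2 snRNA. The first 20 bases are shown for the introns given by value, with the 6-base splice site in capitals, to let the common site be compared with its variants.
RPL36B: GTATGTttacctgaactaat
RPL30: GTCAGTataacatgatttta
RPS22B 5′ UTR intron: GTATGTggacgaggtgtggt
RPS21B: GTACGTaaattatagcagat
RPS9A: GTACGTcgttaatcttctcc
RPS9B: GTACGTattagactatatcg
MPT5: GTATGTattatctcttaatt
Of the 232 introns of a single segment, 168 (72.4%) had GTATGT, 28 (12.1%) GTACGT and 2 (0.862%) GTCAGT, the site of RPL30. Within RP genes the 15 introns with GTACGT had a median difference of -1.30 and 9 calls, and the 76 with GTATGT had a median of -1.10 and 26 calls. Among the other genes the order was turned round, at -0.17 for 13 introns with GTACGT and -0.57 for 92 with GTATGT. Those 13 held a median of only 11.5 intron counts. Several of them, in YRF1 copies and YPR202W, share the same first 20 bases, so their reads are not independent. The 7 introns with GCATGT had a median of -0.02 and 1 call, in COX5B. Most of these 7 share the same first 20 bases and branch window, and reads that map to several copies were counted at each, so this median is largely that of 1 repeated sequence. The exact branch site TACTAAC was present in 199 introns (85.8%), with a median of -0.93 and 51 calls, and absent from 33, with a median of -0.65 and 6 calls. The introns of RPS9A and RPS9B are among those without it. RP introns were a minority of the 33, and these groups were not split into RP and other genes. The gap between their medians can therefore not be told apart from that between RP and other introns.

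The branch site is printed in capitals for 3 introns that have it, since the bases around it differ where the site itself does not.
RPL36B: gtgcttgtTACTAACataagata
RPL30: gaataatcTACTAACaagttaat
RPS22B 5′ UTR intron: aagtataaTACTAACgtttcaaa
They lie at chrXVI:76005-76027, chrVII:439270-439292 and chrXII:856399-856421 of R64.

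The intron of HAC1 gives a contrast, because it is removed by the endonuclease Ire1 and tRNA ligase and not by the spliceosome. Its retention was 0.697 and 0.714 in the cycloheximide-rich mixtures and 0.728 and 0.775 in the LiCl-rich mixtures (-0.09 ± 0.54, adjusted p = 0.93). This standard error comes from a model shared across introns. With it, a difference as large as the RP median of -1.15 could not be told from 0 with confidence. Log2 values within a side lay closer together, at -0.52 and -0.49 (cycloheximide-rich) and -0.46 and -0.37 (LiCl-rich). Retention of this intron was 0.785 without drug, and whether that level limited a rise was not tested.

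The middle mixture, point 4, took no part in these tests. It lay between the means of the sides in 150 of the 252 genes called higher (59.5%) and above both in 100 (39.7%). Of the 76 genes called lower it lay between in 52 (68.4%) and below both in 24 (31.6%), against 34.8% between, 32.1% above and 33.2% below over all genes tested. Called genes have a wide gap between the sides, so the excess in between is in part fixed by the call. Chosen after their values were seen, HXT2, with 506 CPM at point 4, HXK1, with 1051 CPM, and HXT7, with 1204 CPM, were highest there of all 8 libraries.

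The ends of the isobole, cycloheximide only and LiCl only, share no library with the mixtures and give the same contrast for the pure compounds. Of the 252 genes called higher, 238 (94.4%) had the same direction at the ends, as had 75 of the 76 called lower (98.7%) and 79.9% of all genes tested. The exception among those called lower was MFA1, at 0.07. The end difference was wider, with medians of 1.18 for the genes called higher and -1.09 for those called lower, against 0.73 and -0.68 between the mixtures. In one fit of all 8 libraries, in which each end is a single library assumed to vary like the mixtures, the 2 contrasts differed in 42 of 6389 genes (0.657%), 27 with the end contrast above (0.423%) and 15 below (0.235%), or in 129 with libraries scaled by total counts. The single-compound differences were 4.69 for SPL2 and 3.57 for MET6, where the mixtures gave 1.26 and 1.33. RNR3 had -3.77 at the ends against -0.68 between the mixtures, and CIT2, the peroxisomal citrate synthase, -1.96 against -0.21, and in both LiCl alone stood above every mixture, at 166 and 146 CPM. TKL2 had 0.10 at the ends and 1.47 between the mixtures, and SPS100, a spore wall gene, -1.32 and 1.41, with 15.0 and 6.87 CPM in cycloheximide alone.

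**Figure D5:**
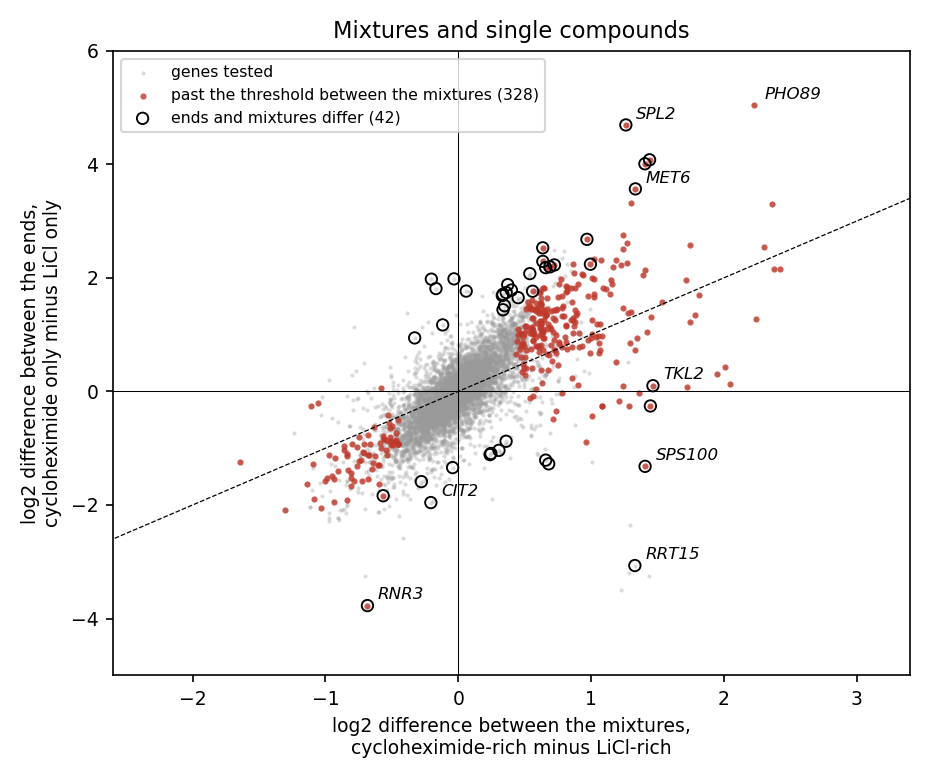
Log2 difference between the single compounds (vertical axis, cycloheximide only minus LiCl only) against that between the mixtures (horizontal axis, cycloheximide-rich minus LiCl-rich) for each gene, with the dashed line of equality. Red points are the 328 genes called between the mixtures, and rings mark the genes in which the 2 contrasts differ, such as SPL2 and MET6 above the line and RNR3 and TKL2 below it.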

How the data were processed

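Strain BY4741 was sequenced as ribodepleted total RNA with 50-base single-end reads, 1 library per condition, of which points 2, 3, 5 and 6 of the isobole were compared. The values the authors deposited are raw counts per CDS, intron and 5′ UTR intron. Per the labels and the file headers, the authors aligned reads with TopHat to build R64 and counted them with featureCounts 1.6.2, with multi-mapping and overlapping reads counted at every feature and no strand setting. Counts of near-identical paralogs, overlapping genes and antisense genes are therefore uncertain. Several introns of 1 CDS form 1 feature. Of 6697 CDS features, 6014 were found in the R64 annotation, which gave the symbols, and 6009 had the same coordinates there.

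Counts of 6338 genes with a mean of at least 20 CDS counts over the 4 mixtures were tested with edgeR 4.0.16 (TMM, quasi-likelihood test, 2 against 2). Introns of protein-coding genes (241 with means of at least 5 intron and 20 CDS counts) were tested in 1 edgeR fit of intron and CDS counts, with library terms and a term for the change of the intron share between the sides. Retention used a pseudocount of 0.5. On simulated data with the real means, 197 of 200 changed CDS genes were recovered with 5 false calls among 6329 genes, and 53 of 59 changed introns with 1 false call among 242. The planted log2 differences were 1 or 2 for genes and 2 for introns, with 1 dispersion for all genes and 1 for all introns. Most differences called here were smaller, so this recovery does not measure how reliable the calls are. Alternatives were DESeq2, its size factors, limma-voom, total counts, all 8 libraries, a slope over the 5 mixtures, other filters and each library left out. Named genes were 10 fixed genes, the 10 largest differences in each direction with no overlap and at least 10 CPM, the 4 smallest p of each list, the 8 lowest introns and the 5 genes furthest from the mixture contrast at each side. No intron was called higher, so none of that kind is named. The comparison, its members, the lists, the motifs and the splice site classes were chosen with earlier results of these data known. Counts of mitochondrial introns were not used, and motif searches used the RefSeq R64 genome. Nothing in the labels says that the mixtures were cultured on separate days, and p-values measure only the spread between these libraries.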

Additional observations from a re-analysis of the deposited data

Results flagged for a closer look

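Each end of the isobole is 1 library without a replicate, so the edgeR test of the end contrast against the mixture contrast takes its spread from the mixtures alone. With that limit the contrasts differed in 42 genes, or 129 with total counts, and the 5 furthest in each direction are given, as the end contrast minus the mixture contrast. Above 0 were SPL2 (3.43), PHO12 (2.64), PHO11 (2.60), MET6 (2.23) and the histone gene HTA1 (1.89). In these 5, LiCl alone was below all mixtures. Below 0 were RRT15 (-4.40), RNR3 (-3.09), SPS100 (-2.73), CIT2 (-1.75) and TKL2 (-1.37). RRT15 varied within a side, with 119.8 and 38.8 CPM in the cycloheximide-rich mixtures and 25.2 and 37.4 CPM in the LiCl-rich mixtures. The introns of the 2 U3 RNA genes, which entered no comparison, held 47.7 and 46.4 CPM in the cycloheximide-rich mixtures, 71.6 and 95.6 CPM in the LiCl-rich mixtures and 44.1 CPM without drug. The lowest mixture was thus above the drug-free culture, by a margin that was not tested.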

How the results depend on the processing

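No paired analysis was possible because the labels give the mixtures no replicate numbers. The 328 CDS calls became 15, all higher, with a slope over the 5 mixtures, and between 148 and 1045 with a library left out. Other scalings, filters and tests gave 275 to 372. Total counts moved the median of all genes to -0.03. The 58 intron calls became 0 with limma on log2 retention, 103 with the slope, and between 0 and 119 with a library left out. The median retention difference of -0.86 was -0.56 for intron CPM alone, averaged within a side on the log2 scale, and ranged from -1.17 to -0.59 with a library left out. The RP excess of -0.63 was -0.24 for intron CPM on that log2 average and ranged from -1.04 to -0.27 with a library left out. The 42 genes with differing end contrast became 129 with total counts. None of the 79 CDS values and 12 introns recomputed under the alternatives changed direction with a call, and GPP2, GCV1, GCV2, GCV3, SHM2, DSE1, DSE2, SCW11 and the MPT5 intron were not among them. Among 947 checks of 79 named CDS values, 133 lost the call, 63 of them with the slope, and 12 gained it. Among 117 checks of 12 named introns, 44 lost it. Introns with fewer than 20 reads per library, such as those of NCE101 and RCF3, are limited by depth. With a library left out, a lone mixture was assumed to vary like the other side.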
